A study of Mus musculus with 23 samples.

Results

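The 4 Hox gene clusters of the mouse were examined by CpG methylation in 2 tissues of the early post-implantation embryo, the epiblast and the extra-embryonic ectoderm (ExE). Members were chosen by position alone, as the windows whose midpoint lies in HoxA (chromosome 6, 52.155 to 52.262 Mb), HoxB (chromosome 11, 96.19 to 96.37 Mb), HoxC (chromosome 15, 102.918 to 103.042 Mb) or HoxD (chromosome 2, 74.66 to 74.768 Mb) on GRCm38. In the table of E6.5 (embryonic day 6.5) embryos 232 of 333984 windows met this rule, namely 60 in HoxA, 69 in HoxB, 49 in HoxC and 54 in HoxD. In the tables of E7.5 embryos 255 of 402812 windows met it, with 66, 75, 54 and 60 in the same order. The clusters carried 38 listed genes, of which 10 lay in HoxA, 10 in HoxB, 9 in HoxC and 9 in HoxD.

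Methylation was measured by post-bisulphite adaptor tagging (PBAT), in which bisulphite-treated DNA is made into a library, in hybrid embryos of C57BL6/Babr (B6) and CAST/Ei (CAST) mice, with the mother's strain written first. At E6.5 each library came from input chromatin of a pool of 4 epiblasts or 8 ExE, and each of the wild-type crosses, B6/CAST and CAST/B6, had 3 epiblast pools and 2 ExE pools. The matDKO/CAST group held 2 epiblast and 3 ExE libraries from mothers of a C57BL6/Babr/129 background homozygous for floxed Dnmt3a and Dnmt3b and carrying Zp3-cre, which is active in growing oocytes, mated to CAST males. At E7.5 each library came from a single wild-type embryo, with 2 for either tissue in either cross. The matDKO eggs lacked the 2 de novo DNA methyltransferases, but the embryos inherited intact paternal copies and were Dnmt3a -/+, Dnmt3b -/+, and the mothers differed from B6/CAST mothers in the 129 background as well. Replicates were separate pools at E6.5 and separate embryos at E7.5.

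Hox genes encode homeodomain transcription factors that give cells their position along the head-to-tail axis, and their order along a cluster follows the order in which they are used in time and along the body. Low-numbered genes pattern the hindbrain and neck, middle ones the trunk, and the highest-numbered ones the tail, limbs and urogenital tract. Before they are used, the clusters are held silent by Polycomb complexes, and their CpG-dense DNA is largely free of DNA methylation in embryonic cells. The epiblast gives rise to the embryo proper, while the ExE is the trophoblast tissue that contributes to the placenta and has a less methylated genome overall.

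Each value was the percentage of CpG calls that were methylated in a window drawn to hold a fixed number of CpGs, so a short window is CpG-dense. The number of reads behind a value is unknown, so no counting interval could be given. In these bulk samples a percentage does not tell a window that is methylated in some cells from one partly methylated in all. At E7.5 each of the 255 member windows had a value in each of the 8 libraries, and between 0 and 10 windows per library were listed at exactly 0%. At E6.5 between 195 and 232 of 232 had a value, between 6 and 70 were at exactly 0%, and the highest numbers at 0% were in epiblast, with 70 and 43 in matDKO/CAST and up to 51 in wild type. Among marker genes fixed for the tissues was Elf5, a trophoblast regulator known to be methylated in the embryonic lineage and unmethylated in trophoblast. The window at its start stood at 85.9% in epiblast and 63.9% in ExE at E7.5, and at 83.8% and 74.7% at E6.5. It was thus far from unmethylated in ExE, and the genome as a whole had the same direction, so Elf5 did not by itself mark the tissues. The start windows of the pluripotency genes Pou5f1 (18.1% against 38.9%) and Nanog (42.9% against 56.4%) were higher in ExE. The windows of Eomes and Cdx2 were near 0% in both tissues and told the tissues apart in neither direction.

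RefSeq promoter sequences (GRCm38.p6, 250 bases before to 50 after a start) matched 22 of the 38 genes, with 24 promoters. They are shown for the genes with the highest and lowest start windows of HoxA and HoxD by the mean of all E7.5 libraries, and for Hoxb1, with each CG dinucleotide in capitals. CG reads the same on both strands and was the only motif searched. Of all 32817 RefSeq promoters 94.6% held at least 1 CG, with a median of 7 against 14.5 over the 24 Hox promoters.
Hoxa13 promoter, chr6:52260831-52261130, minus strand: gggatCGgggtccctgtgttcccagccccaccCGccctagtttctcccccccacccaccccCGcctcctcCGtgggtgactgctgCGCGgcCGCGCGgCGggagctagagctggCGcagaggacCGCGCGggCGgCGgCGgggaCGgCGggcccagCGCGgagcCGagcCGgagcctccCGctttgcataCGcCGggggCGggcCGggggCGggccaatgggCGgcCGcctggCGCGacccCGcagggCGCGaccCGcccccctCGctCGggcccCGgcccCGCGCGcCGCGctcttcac
Hoxd1 promoter, chr2:74762730-74763029, plus strand: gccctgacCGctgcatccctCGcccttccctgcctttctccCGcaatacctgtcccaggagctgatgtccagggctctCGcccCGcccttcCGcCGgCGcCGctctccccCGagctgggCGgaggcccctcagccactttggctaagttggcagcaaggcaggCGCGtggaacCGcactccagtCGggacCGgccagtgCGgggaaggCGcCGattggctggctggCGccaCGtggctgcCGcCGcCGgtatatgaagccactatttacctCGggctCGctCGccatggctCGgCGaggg
Hoxa10 promoter, chr6:52240805-52241104, minus strand: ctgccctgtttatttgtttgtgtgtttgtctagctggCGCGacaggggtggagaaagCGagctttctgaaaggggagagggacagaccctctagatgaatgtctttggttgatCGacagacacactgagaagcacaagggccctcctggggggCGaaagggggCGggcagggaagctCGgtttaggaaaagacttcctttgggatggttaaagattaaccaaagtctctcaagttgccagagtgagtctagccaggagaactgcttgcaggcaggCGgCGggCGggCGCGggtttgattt
Hoxd12 promoter, chr2:74674763-74675062, plus strand: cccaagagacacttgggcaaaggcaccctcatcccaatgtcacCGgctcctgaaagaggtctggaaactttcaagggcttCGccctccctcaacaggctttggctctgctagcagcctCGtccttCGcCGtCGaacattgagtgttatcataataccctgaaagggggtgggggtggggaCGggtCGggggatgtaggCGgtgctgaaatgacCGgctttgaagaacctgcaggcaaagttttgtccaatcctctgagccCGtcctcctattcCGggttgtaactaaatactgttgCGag
Hoxb1 promoter, chr11:96365508-96365807, plus strand: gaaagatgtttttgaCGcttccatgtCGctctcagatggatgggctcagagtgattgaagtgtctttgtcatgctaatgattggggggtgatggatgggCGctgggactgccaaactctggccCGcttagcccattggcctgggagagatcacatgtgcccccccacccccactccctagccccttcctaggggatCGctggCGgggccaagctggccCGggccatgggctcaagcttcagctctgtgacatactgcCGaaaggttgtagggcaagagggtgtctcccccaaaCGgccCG
The Hoxa13 promoter held 45 CG, a number reached by 1.93% of all promoters, and that of Hoxd1 held 29, reached by 12.9%. Those of Hoxd12 (13 CG, reached by 37.9%), Hoxa10 (12, reached by 39.6%) and Hoxb1 (10, reached by 43.4%) were nearer to the common range. Across the 24 promoters, more CG went with lower methylation of the window that holds the promoter, with Spearman's rho of -0.67 in ExE and -0.62 in epiblast at E7.5. These are descriptions across promoters of the same libraries.

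A window of HoxD that overlaps an exon, 723 bases from the start of Hoxd8, was the least methylated of its cluster by the mean of all E7.5 libraries, and it is shown as an example of a CpG-dense member.
HoxD window, chr2:74705338-74705600, plus strand: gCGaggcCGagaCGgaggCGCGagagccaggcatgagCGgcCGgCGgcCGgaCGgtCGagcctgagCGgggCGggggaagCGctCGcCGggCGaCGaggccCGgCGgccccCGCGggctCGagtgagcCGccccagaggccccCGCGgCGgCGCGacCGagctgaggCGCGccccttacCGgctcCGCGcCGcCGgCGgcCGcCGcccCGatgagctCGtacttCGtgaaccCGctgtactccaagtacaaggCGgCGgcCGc
It held 47 CG and stood at 1.10% in epiblast and 0.57% in ExE at E7.5.

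The first question was how the clusters differ between the 2 tissues. At E7.5 the Hox clusters were more methylated in ExE than in epiblast, the opposite of most of the genome. Averaged over the 255 windows, the epiblast libraries stood at 8.74%, 10.3%, 9.45% and 10.2%, and the ExE libraries at 19.2%, 19.9%, 19.3% and 19.1%. No epiblast library reached any ExE library, and the means were 9.67% ± 0.72 (SD, n = 4) and 19.4% ± 0.39 (n = 4). Over all autosomal windows the order was the reverse, with 73.9% ± 1.65 in epiblast and 57.6% ± 1.66 in ExE.

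Each cluster showed this order in its library means. HoxA stood at 5.11%, 5.94%, 5.89% and 6.79% in epiblast and at 15.7%, 15.9%, 15.7% and 15.1% in ExE. HoxC stood at 5.78%, 7.64%, 6.92% and 7.25% in epiblast and at 17.2%, 18.6%, 18.5% and 17.4% in ExE. HoxD stood at 7.48%, 10.1%, 7.87% and 8.64% in epiblast and at 18.0%, 19.1%, 16.6% and 18.1% in ExE. In none of these clusters did the 2 tissues overlap. HoxB was the most methylated, at 15.1%, 16.2%, 15.7% and 16.5% in epiblast and 24.6%, 25.1%, 25.3% and 24.5% in ExE, again without overlap.

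**Figure D1:**
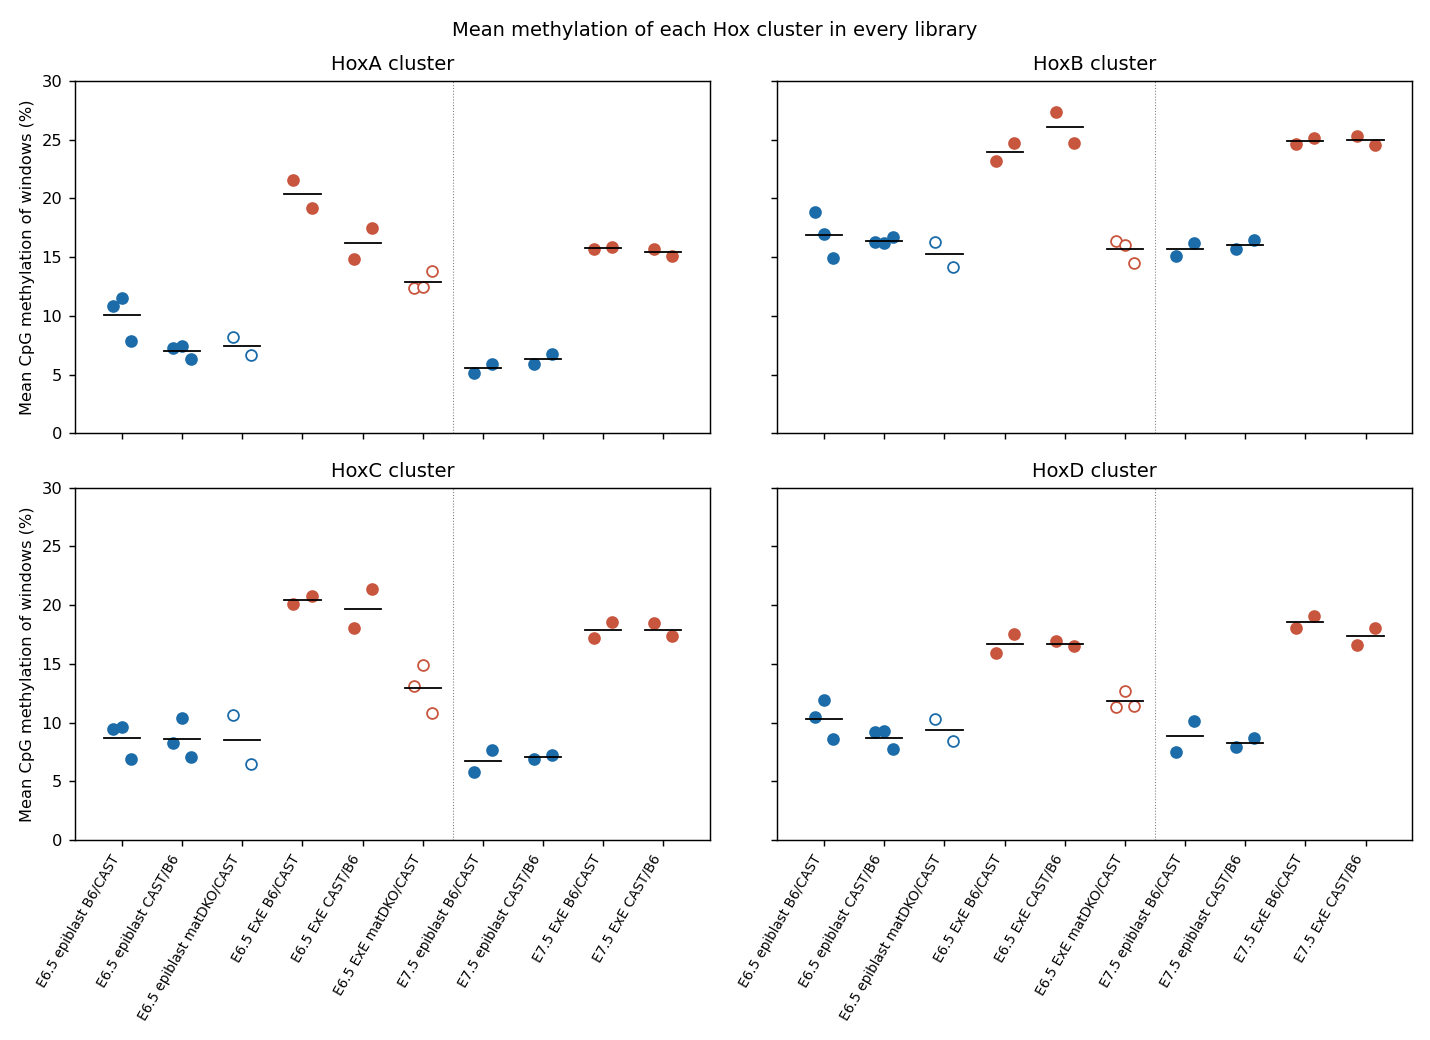
Mean CpG methylation (%) of the member windows of each cluster in every library (points), by group with the group mean as a line; epiblast is blue, ExE red and matDKO/CAST open, and the dotted line parts E6.5 (133 windows with a value in all 15 libraries) from E7.5 (255 windows). At E7.5 the epiblast points of all 4 clusters lie below the ExE points, with HoxB highest in both tissues, and at E6.5 the open ExE points lie below the filled ones.

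Window by window, limma with Benjamini-Hochberg adjustment over all 383556 autosomal windows called 188 of the 255 member windows higher in ExE, where 1.3% of all windows were called in that direction. It called 12 higher in epiblast, where 82.9% of all windows were called, and 55 did not pass. ExE was higher in 44 of 66 windows of HoxA, 58 of 75 of HoxB, 44 of 54 of HoxC and 42 of 60 of HoxD. The 12 windows higher in epiblast lay in HoxB (10) and HoxD (2). The median difference, epiblast minus ExE, was -10.6 percentage points over the members and +16.5 over all windows. In 180 of the 255 windows every epiblast library was below every ExE library, against 1.35% of all windows.

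**Figure D2:**
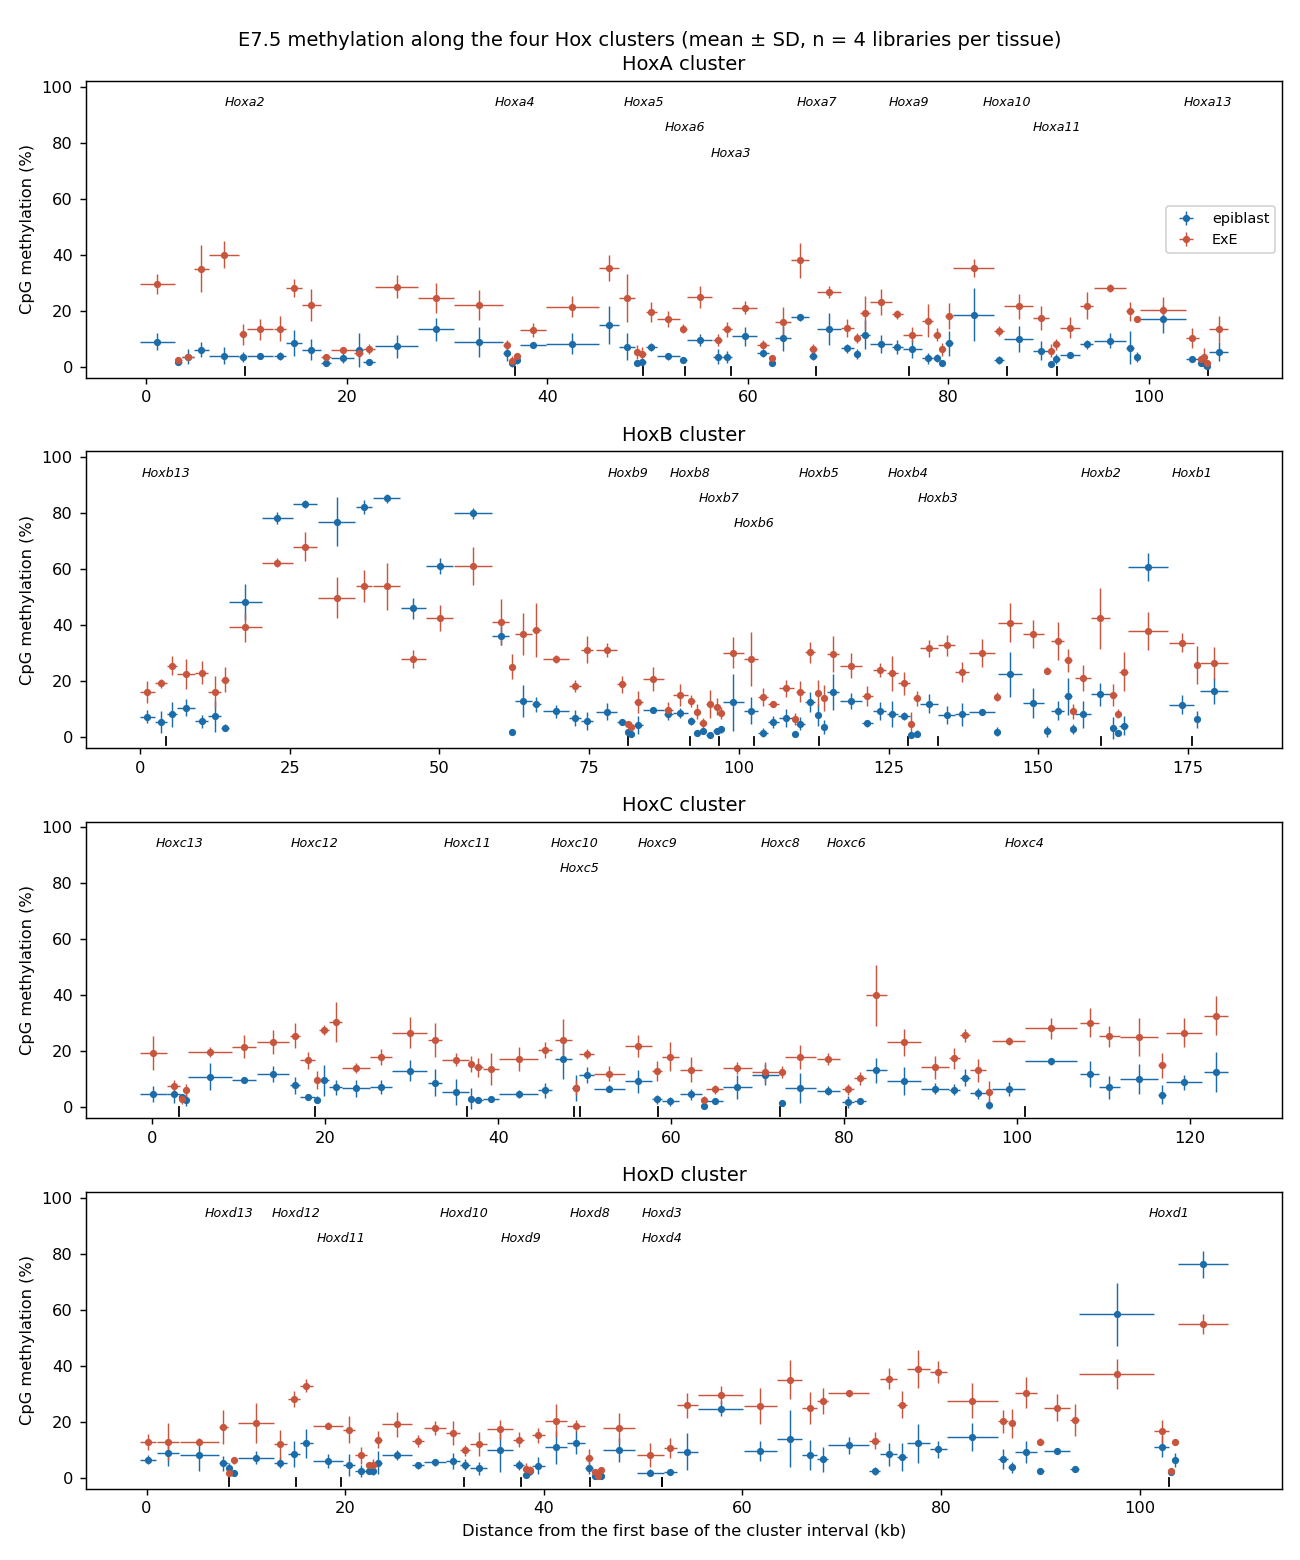
CpG methylation (%) of each E7.5 member window against the distance (kb) from the first base of each cluster interval, with points for the mean of 4 epiblast or 4 ExE libraries, vertical bars for the SD, horizontal bars for the extent of the window and ticks for the gene starts. ExE lies above epiblast in most windows, whereas HoxB between Hoxb13 and Hoxb9 has a stretch of windows that reach 85.2% in epiblast, where epiblast is higher.

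The members were also split by their level in epiblast, which is itself a term of the difference, so the split is a description and has no test. Of the 242 windows below 30% in epiblast, 188 were called higher in ExE and 0 higher in epiblast, with means of 6.58% and 17.8%. Of the 13 windows at 30% or more in epiblast, 12 were called higher in epiblast and 0 higher in ExE, with means of 67.1% and 48.4%. HoxA and HoxC held no window at 30% or more in epiblast. Among all autosomal windows at 20% or more in epiblast 88.5% were called higher in epiblast, so nothing particular to the members is read from the 12 of 13.

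The contrast with the genome was also seen among windows of like CpG density. Member windows were short, with a median of 1661 bases against 5215 over all autosomal windows of that table, so they were compared within length classes. Among windows of 1 to 2 kb the 88 members stood at 5.97% in epiblast and 18.1% in ExE, against 42.2% and 38.8% over all such windows, and 84.1% of members but 12.7% of all were called higher in ExE. Among windows of 2 to 4 kb the 75 members stood at 11.3% and 24.2%, against 74.6% and 63.0%, and 88.0% of members but 1.91% of all were called higher in ExE. Among the densest windows, under 1 kb, the 63 members stood at 2.90% and 8.74%, against 5.48% and 5.72%, with 49.2% and 6.20% called. The 29 members of 4 kb or more stood at 31.5% and 33.9%, against 79.9% and 60.1% over all such windows, with 17 called higher in ExE and 10 higher in epiblast, where 0.119% and 93.4% of all such windows were. Restricted to windows under 20% in epiblast, 77.9% of 240 members and 14.4% of 25258 windows in all were called higher in ExE. Length also ordered the members themselves, with a Spearman's rho against the level of 0.76 in epiblast and 0.69 in ExE over the 255 windows, which share the libraries.

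**Figure D3:**
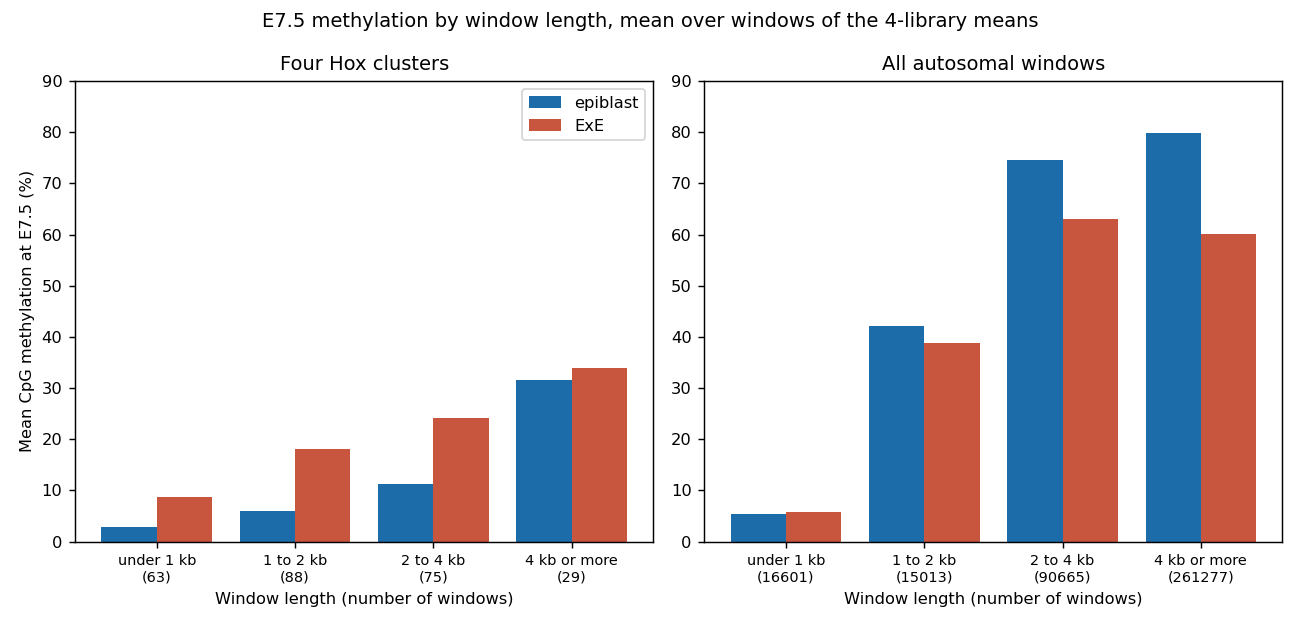
Mean CpG methylation (%) at E7.5 by window length for the member windows (left) and all autosomal windows (right), with bars for the mean over windows of the 4-library means in epiblast and ExE and the number of windows under each class. In the classes under 4 kb the members rise from 2.90% to 11.3% in epiblast while all windows rise from 5.48% to 74.6%.

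In HoxA the called windows with the largest differences lay around Hoxa2, which patterns the hindbrain and the second branchial arch, and near Hoxa4. At chr6:52161241-52164216, which overlaps an exon of Hoxa2, the epiblast libraries stood at 7.01%, 5.85%, 1.98% and 0.97% and the ExE libraries at 45.4%, 42.8%, 36.2% and 35.5%. The tissues did not overlap, and the difference was -36.0 points (SE 2.01, adjusted p = 7.9e-05). At chr6:52159768-52161220, outside the listed gene bodies, epiblast stood at 2.03%, 7.97%, 6.40% and 7.58% and ExE at 24.9%, 32.1%, 44.1% and 39.0%, a difference of -29.0 points (SE 3.20, adjusted p = 0.00012). At chr6:52177840-52182104, over an exon of a listed gene and nearest the start of Hoxa4, epiblast stood at 13.3%, 4.85%, 4.57% and 6.52% and ExE at 31.3%, 32.5%, 26.8% and 23.4%, a difference of -21.2 points (SE 2.51, adjusted p = 0.00016). In both of these the lowest ExE library was above the highest epiblast library.

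In HoxC the largest called difference lay at chr15:103000488-103003009, whose nearest gene start is that of Hoxc6, a trunk gene. Epiblast stood at 13.2%, 18.1%, 14.2% and 7.22% and ExE at 32.1%, 44.8%, 53.1% and 29.9%, a difference of -26.8 points (SE 5.26, adjusted p = 0.0015). Near the posterior gene Hoxc12, at chr15:102938462-102939949, epiblast stood at 7.12%, 4.42%, 6.20% and 10.9% and ExE at 23.8%, 24.4%, 37.1% and 35.9%, a difference of -23.2 points (SE 2.65, adjusted p = 0.00014). At chr15:103039599-103042422, past the end of the cluster's genes, epiblast stood at 2.96%, 17.9%, 11.6% and 18.4% and ExE at 34.1%, 27.2%, 41.8% and 27.7%, a difference of -20 points (SE 4.30, adjusted p = 0.0024). The tissues did not overlap in any of these windows.

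In HoxD the 3 called windows with the largest differences lay close together within the annotated body of Hoxd3. They lie past the end of Hoxd4, which patterns the neck, and before Hoxd1. At chr2:74738861-74740543 epiblast stood at 9.56%, 11.3%, 6.17% and 13.4% and ExE at 32.6%, 42.1%, 37.7% and 38.4%, a difference of -27.6 points (SE 2.79, adjusted p = 0.0001). At chr2:74733857-74735569, in an intron of a listed gene, epiblast stood at 2.82%, 11.9%, 7.75% and 10.8% and ExE at 34.5%, 37.5%, 38.8% and 30.7%, a difference of -27.1 points (SE 2.92, adjusted p = 0.00012). At chr2:74736586-74738841 epiblast stood at 17.1%, 10.0%, 3.48% and 18.6% and ExE at 46.2%, 40.0%, 29.7% and 39.7%, a difference of -26.6 points (SE 4.06, adjusted p = 0.00043). Every ExE library exceeded every epiblast library in the 3 windows.

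HoxB held 10 of the 12 members called higher in epiblast. Hoxb13, a tail and prostate gene, is set apart from Hoxb9 by a long interval, and the 10 windows of chr11:96204939-96251616, a stretch chosen after its values were seen, stood at 67.7% ± 2.38 in epiblast (64.2% to 69.3%, n = 4) and 49.9% ± 2.14 in ExE (47.0% to 51.6%, n = 4). The 65 other windows of HoxB stood at 7.89% ± 0.94 in epiblast and 21.1% ± 0.73 in ExE, in the order of the other clusters. The 3 called windows of HoxB with the largest differences all lay in the interval.

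At chr11:96228927-96233487 epiblast stood at 84.7%, 84.0%, 87.6% and 84.4% and ExE at 64.2%, 48.9%, 45.5% and 56.6%, a difference of +31.4 points (SE 3.94, adjusted p = 0.00019). At chr11:96226046-96228807 epiblast stood at 84.1%, 84.0%, 78.8% and 82.1% and ExE at 61.8%, 54.5%, 48.9% and 50.6%, a difference of +28.3 points (SE 2.46, adjusted p = 8.2e-05). At chr11:96219811-96225990 epiblast stood at 85.0%, 64.9%, 81.5% and 76.1% and ExE at 58.8%, 44.3%, 43.2% and 52.3%, a difference of +27.2 points (SE 5.12, adjusted p = 0.0012). The tissues did not overlap in these windows, none of which lies in a listed gene body. The most methylated window of HoxB by the mean of all libraries, chr11:96215555-96219517, also lay here, at 83.3% in epiblast and 68.0% in ExE. At the end of the interval nearest Hoxb9, chr11:96248853-96251616 stood at 36.2% in epiblast and 41.0% in ExE and was not called.

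Outside this interval, 3 member windows stood at 30% or more in epiblast, all near the first genes of their clusters, and all were called higher in epiblast. Upstream of Hoxb1, chr11:96354972-96361673 stood at 60.7% in epiblast and 38% in ExE. In HoxD, chr2:74753904-74761460 before Hoxd1 stood at 58.3% and 37.1%, and chr2:74763831-74768888, over an exon of Hoxd1 and at the cluster's border, stood at 76.1% and 54.7%. With each library's genome mean subtracted 3 of the 12 calls higher in epiblast were left, those at the 3 HoxB windows with the largest differences, so the calls at these 3 windows near Hoxb1 and Hoxd1 were lost.

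In the DNA around the clusters epiblast was the higher tissue on average. Over 339 windows within 200 kb of the borders, with both sides of a cluster pooled, epiblast stood at 60.9% and ExE at 49.6%, with 238 windows called higher in epiblast, where 82.9% of all windows were. The 31 flanking windows called higher in ExE made up 9.14%, against 1.3% of all windows. The HoxA flanks held 15 of those 31, among 83 windows (18.1%), and stood at 62.5% in epiblast and 53.8% in ExE.

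At the starts of the genes ExE was again the higher tissue in most cases. The 38 genes began in 37 windows, since Hoxd3 and Hoxd4 share one. The start was taken as the outermost annotated first base, which for some genes, Hoxc4 and Hoxd4 among them, is that of a distant isoform. The median level at the start was 4.10% in epiblast and 12.6% in ExE, 26 of 38 genes were called higher in ExE (1.3% of all windows) and 0 higher in epiblast (82.9% of all windows), and 37 of 38 had the lower mean in epiblast. The called genes were 5 of 10 in HoxA, 9 of 10 in HoxB, 6 of 9 in HoxC and 6 of 9 in HoxD. By position in the cluster they were 9 of 11 in paralogue groups 1 to 4, 7 of 11 in groups 5 to 8 and 10 of 16 in groups 9 to 13. The 37 start windows averaged 5.38% in epiblast and 14.3% in ExE, and the 218 other windows 10.4% and 20.2%.

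**Figure D4:**
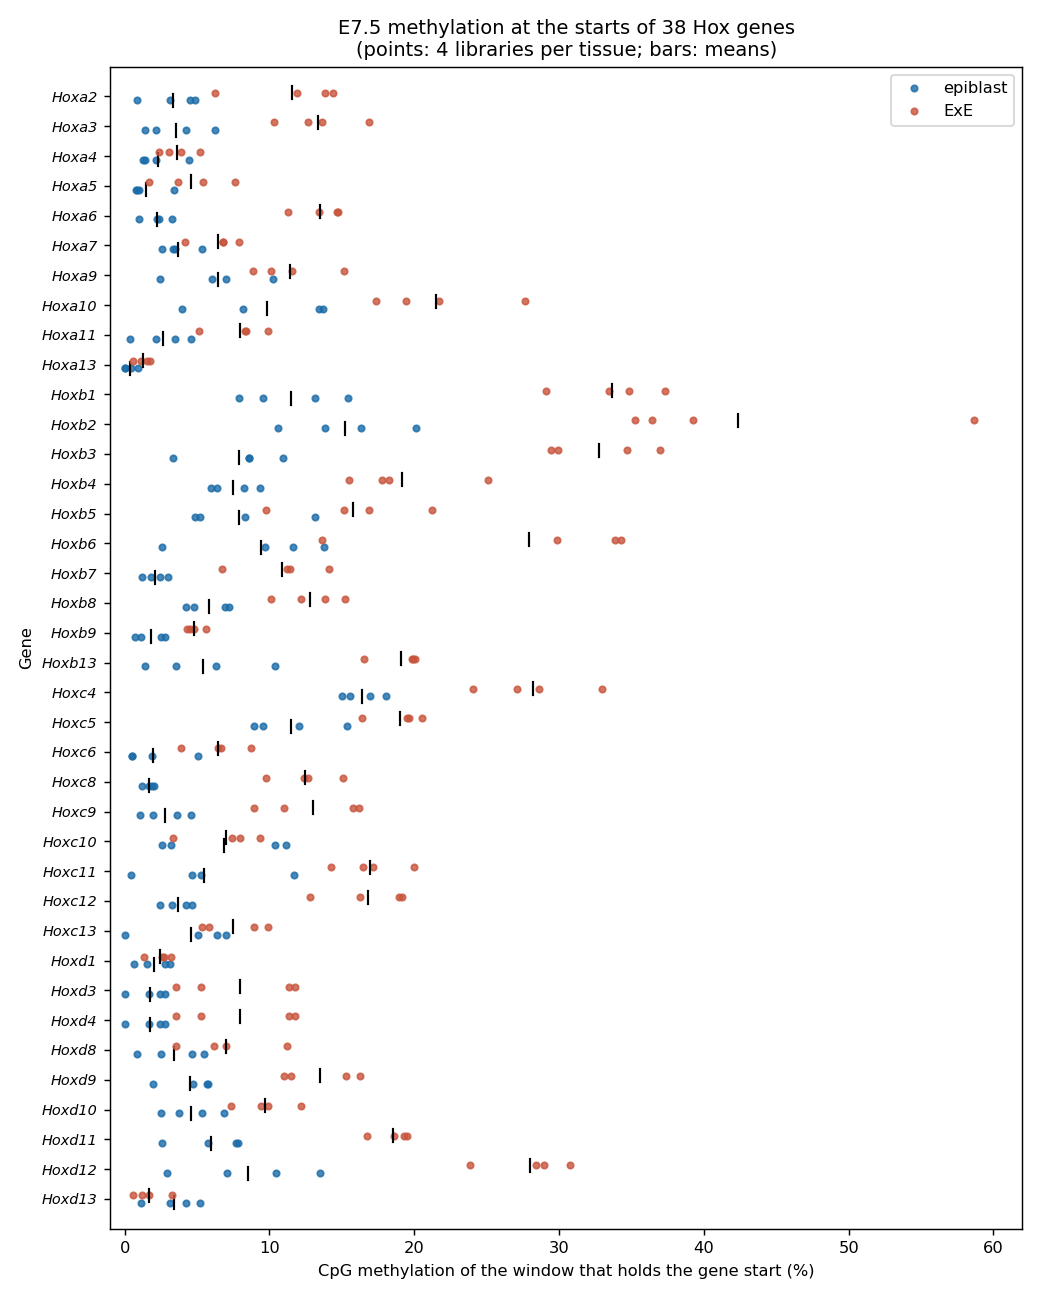
CpG methylation (%) at E7.5 of the window that holds the start of each of the 38 Hox genes, with points for the 4 epiblast and the 4 ExE libraries and bars for their means. The ExE mean lies above the epiblast mean at 37 of the 38 starts, with the highest values at Hoxb2, Hoxb1 and Hoxb3 and values near 0 in both tissues at Hoxa13.

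Among the anterior genes, the start windows of Hoxb1, Hoxb2 and Hoxb3 stood highest in ExE. Hoxb2, a hindbrain gene, stood at 10.6%, 20.1%, 16.3% and 13.8% in epiblast and 36.4%, 35.3%, 58.7% and 39.2% in ExE, a difference of -27.2 points (SE 4.74, adjusted p = 0.00082). Hoxb3 stood at 8.60%, 3.37%, 11% and 8.60% against 34.7%, 29.9%, 37.0% and 29.4%, a difference of -24.9 points (SE 2.63, adjusted p = 0.00011). Hoxb1, which sets the identity of a hindbrain segment and whose promoter is shown above, stood at 7.88%, 15.5%, 13.1% and 9.52% against 34.8%, 37.3%, 33.5% and 29.1%, a difference of -22.2 points (SE 2.60, adjusted p = 0.00015). The tissues did not overlap at any of the 3. Hoxd1, with the CpG-rich promoter shown above, had the lowest start window of HoxD by the mean of all libraries, at 0.63%, 3.15%, 2.78% and 1.56% in epiblast and 3.19%, 1.33%, 2.69% and 2.57% in ExE, and the overlapping tissues were not told apart (-0.42 points, SE 1.94, adjusted p = 0.85). Hoxc4 had the highest start window of HoxC, at 16.4% in epiblast and 28.2% in ExE (-11.8 points, SE 2.47, adjusted p = 0.002).

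Among the trunk genes, Hoxb6 stood at 9.69%, 11.6%, 2.57% and 13.8% in epiblast and 34.2%, 33.9%, 29.9% and 13.6% in ExE, so that 1 ExE library lay at the level of the highest epiblast library, and the difference was -18.5 points (SE 4.21, adjusted p = 0.0032). Hoxa6 stood at 0.97%, 2.20%, 2.38% and 3.30% against 11.3%, 14.7%, 14.7% and 13.4% (-11.3 points, SE 1.97, adjusted p = 0.00082). Hoxc8 stood at 1.71%, 1.17%, 2.01% and 1.89% against 9.73%, 15.1%, 12.7% and 12.4% (-10.8 points, SE 2.07, adjusted p = 0.0013). In these last windows the ExE libraries lay well above a uniformly low epiblast. The start window of Hoxc6, the lowest of HoxC by the mean of all libraries, stood at 1.97% and 6.43% and was not called (adjusted p = 0.076).

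Among the posterior genes, Hoxd12, a limb gene, had the highest start window of HoxD, at 7.05%, 13.5%, 2.96% and 10.5% in epiblast and 28.4%, 30.8%, 29.0% and 23.8% in ExE, a difference of -19.5 points (SE 2.68, adjusted p = 0.00027). Hoxa10, which acts in limb and uterus, had the highest start window of HoxA, at 3.95%, 13.4%, 8.16% and 13.7% against 17.4%, 21.7%, 27.6% and 19.4% (-11.7 points, SE 3.08, adjusted p = 0.0066). Hoxb13 stood at 1.39%, 10.4%, 3.53% and 6.30% against 19.9%, 16.6%, 19.9% and 20% (-13.7 points, SE 2.56, adjusted p = 0.0012). The tissues did not overlap at these 3 starts.

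At other posterior starts neither tissue carried much methylation. Hoxa13, a digit and urogenital gene with the CpG-richest promoter shown, stood at 0.90%, 0%, 0% and 0.46% in epiblast and 1.10%, 0.59%, 1.74% and 1.56% in ExE (-0.91 points, SE 1.87, adjusted p = 0.67), the lowest member window of HoxA. Hoxd13, its HoxD paralogue, was the single start with a higher mean in epiblast, at 4.23%, 1.10%, 3.12% and 5.23% against 3.26%, 1.21%, 1.69% and 0.56%, and was not called (+1.74 points, SE 2.05, adjusted p = 0.45). Hoxb9, the lowest start window of HoxB, stood at 1.79% and 4.8% and was not called (adjusted p = 0.17). Hoxc10 stood at 3.21%, 2.59%, 10.4% and 11.2% against 3.34%, 9.31%, 7.38% and 7.96%, with the tissues overlapping fully (-0.16 points, SE 2.40, adjusted p = 0.95).

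Related genes were set beside the members by lists. Of 6 other homeobox genes of the Evx and ParaHox families, 4 (Evx1, Evx2, Pdx1 and Gsx1) were called higher in ExE at their start windows and 0 in epiblast, where 1.3% and 82.9% of all windows were. The start window of Evx2 lies within the HoxD interval and is itself a member. Evx1, which neighbours HoxA, stood at 3.40% in epiblast and 20.4% in ExE. Of 9 genes for Hox cofactors of the Pbx and Meis kind, 0 were called higher in ExE and 1, Meis3, higher in epiblast (34.5% against 24.4%). Of 7 genes for Polycomb subunits and other histone-modifying enzymes, 0 were called in either direction. The same shares of all windows apply to these lists, and no list was tested against them.

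The E6.5 table gave the same direction with fewer calls. Over the 169 member windows with a value in all 10 wild-type libraries, the 6 epiblast libraries ranged from 10.5% to 13.7% (11.9% ± 1.42, n = 6) and the ExE libraries stood at 21.6%, 21.5%, 19.9% and 21.4% (21.1% ± 0.84, n = 4), without overlap. HoxA stood at 8.62% ± 2.15 and 18.4% ± 3.38, HoxB at 18.2% ± 1.06 and 26.4% ± 0.97, HoxC at 8.49% ± 1.41 and 20.2% ± 1.42, and HoxD at 8.50% ± 1.87 and 16.2% ± 0.94. Limma called 60 windows higher in ExE (11 of 40 in HoxA, 23 of 58 in HoxB, 18 of 37 in HoxC and 8 of 34 in HoxD), where 0.663% of all 250886 windows were called in that direction. It called 8 higher in epiblast (7 in HoxB and 1 in HoxD), where 59.6% of all were. The 60 calls became 25 with the replicate number as a block, a fit that also left out the B6/CAST epiblast library without a number. They became 99 with limma's trend and robust options and 156 with each library's genome mean subtracted, where 0 members were called higher in epiblast. The subtraction moves every member towards ExE, because the genome mean was higher in epiblast. The 2 days differed in protocol, table, window borders and pooling, so the effect of day cannot be told apart from these and was not tested.

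The E6.5 windows with the largest called differences lay partly near those of E7.5. In HoxD, at chr2:74734423-74736101, the epiblast libraries ranged from 0% to 11.8% and the ExE libraries stood at 39.5%, 40.3%, 53.3% and 40.0%, a difference of -36.7 points (SE 4.21, adjusted p = 0.00042). At the start of Hoxd12, chr2:74674707-74675784, 3 of the 6 epiblast libraries were listed at 0% and the highest at 18.2%, while ExE stood at 33.0%, 27.9%, 51.6% and 34.8%, a difference of -30.6 points (SE 5.59, adjusted p = 0.0015). In HoxB, between Hoxb13 and Hoxb9 but past the methylated interval, chr11:96252558-96255520 ranged from 4.46% to 19.6% in epiblast and stood at 46.2%, 35.6%, 44.6% and 46.7% in ExE, a difference of -34.1 points (SE 4.32, adjusted p = 0.00047). No ExE library overlapped epiblast in these windows. Large differences in the same direction were also called at the window from chr11 position 96255544 (-30.9 points, adjusted p = 0.00057) and, near Hoxc11, from chr15 position 102947972 (-28.2 points, adjusted p = 0.0012).

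Within the interval of HoxB, chr11:96209122-96215141 ranged from 64.7% to 90.4% in epiblast and stood at 47.2%, 50.7%, 43.6% and 61.8% in ExE, a difference of +31.7 points (SE 5.38, adjusted p = 0.0011). With each library's genome mean subtracted this call was lost (+15.2 points, adjusted p = 0.056). In HoxA the largest called difference, -28.2 points (SE 5.80, adjusted p = 0.0025), lay at chr6:52153914-52157865 by the border next to Hoxa2, and in HoxC, -28.5 points (SE 7.0, adjusted p = 0.0056), at a window from chr15 position 102939334 near Hoxc12. At the window from chr6 position 52160333 (-26.4 points, adjusted p = 0.016) the call was lost without the first ExE library of CAST/B6 (adjusted p = 0.058). At the window from chr2 position 74736102 (-23.1 points, adjusted p = 0.015) it was lost without the second ExE library of either cross (adjusted p = 0.055 for B6/CAST and 0.057 for CAST/B6). At the starts of the genes 7 of 23 tested genes were called higher in ExE, where 0.663% of all windows were, and 0 higher in epiblast, where 59.6% were.

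The second question was how the clusters stood in embryos whose mothers lacked DNMT3A and DNMT3B in the egg. In ExE, methylation over the 189 member windows measured in all libraries stood at 20.7% and 20.5% in B6/CAST and at 13.4%, 14.0% and 12.4% in matDKO/CAST, and CAST/B6 stood at 19.3% and 20.4%. No matDKO/CAST library reached a wild-type one. The matDKO/CAST mean of 13.3% ± 0.79 (n = 3) was 64.3% of that of B6/CAST, where all autosomal windows stood at 76.1% of theirs (39.6% against 52.0%). Over all windows CAST/B6 ExE was more methylated than B6/CAST, whereas over the members it was not. The ratios therefore depend on the cross taken as reference, and the members are not read as falling further than the genome. HoxA stood at 19.7% in B6/CAST and 12.2% in matDKO/CAST, HoxB at 24.2% and 15.6%, HoxC at 19.1% and 12.2%, and HoxD at 18.1% and 12.1%. In points the members lay lower by less than the genome, with a mean of -7.36 over members and a median of -12.4 over all windows, and after subtraction of each library's genome mean the mean over members turned to +5.07.

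No single window of these ExE libraries passed the test. Limma called 0 of 189 members and 0.0% of all 254322 windows in either direction, while 14 members and 65546 windows in all had an unadjusted p under 0.05. With 2 and 3 libraries the test passed no window of the genome, so its 0 calls do not show that the members were alike in both groups. The robust limma fit with a trend, and the fit on the logit scale, called 0 members as well, whereas 16 members were called lower when both wild-type crosses were pooled against matDKO/CAST, where 49.0% of all windows were called lower. In 71 of 189 members (37.6%) each matDKO/CAST library was below each B6/CAST library, against 48.7% of all windows.

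The largest uncalled difference of each cluster was as follows. In HoxA, chr6:52235522-52239829, in an intron near Hoxa10, stood at 36.6% and 42.9% in B6/CAST and 8.33%, 15.6% and 13.8% in matDKO/CAST, a difference of -27.1 points (SE 6.36, adjusted p = 0.13). In HoxB, chr11:96219876-96226815 stood at 54.4% and 56.1% against 40.0%, 18.9% and 38.6% (-22.8 points, SE 8.05, adjusted p = 0.15). In HoxD, chr2:74727532-74728721 over an exon near Hoxd4 stood at 32.2% and 31.5% against 14.2%, 9.26% and 5.0% (-22.3 points, SE 6.66, adjusted p = 0.13). The groups did not overlap in any of these windows, and CAST/B6 ExE reached down to 9.52% in the last. In HoxC, chr15:103010941-103012338 near Hoxc4 stood at 47.4% and 34.4% against 24.6%, 17.6% and 23.3% (-19.1 points, SE 10.7, adjusted p = 0.27), and CAST/B6 stood at 6.25% and 44.4%.

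In the epiblast matDKO/CAST lay among the wild-type libraries. Over 161 windows B6/CAST stood at 13.2%, 13.2% and 10.4% and matDKO/CAST at 12.1% and 10.3%, so the groups overlapped. The matDKO/CAST mean of 11.2% ± 1.28 (n = 2) was 91.1% of the 12.3% ± 1.60 (n = 3) of B6/CAST, where all autosomal windows stood at 53.1% against 69.8%, or 76.1%. After subtraction of each library's genome mean the mean difference over members turned from -1.10 to +15.6 points. HoxA stood at 9.74% in B6/CAST and 7.72% in matDKO/CAST, HoxB at 17.3% and 15.9%, HoxC at 8.98% and 9.41%, and HoxD at 10.0% and 8.95%. Limma called 1 member lower, where 23.4% of all 192419 windows were called lower, and 1 higher, where 0.0291% were. In 16 members (9.94%) each matDKO/CAST library was below each B6/CAST library, against 49.7% of all windows.

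**Figure D5:**
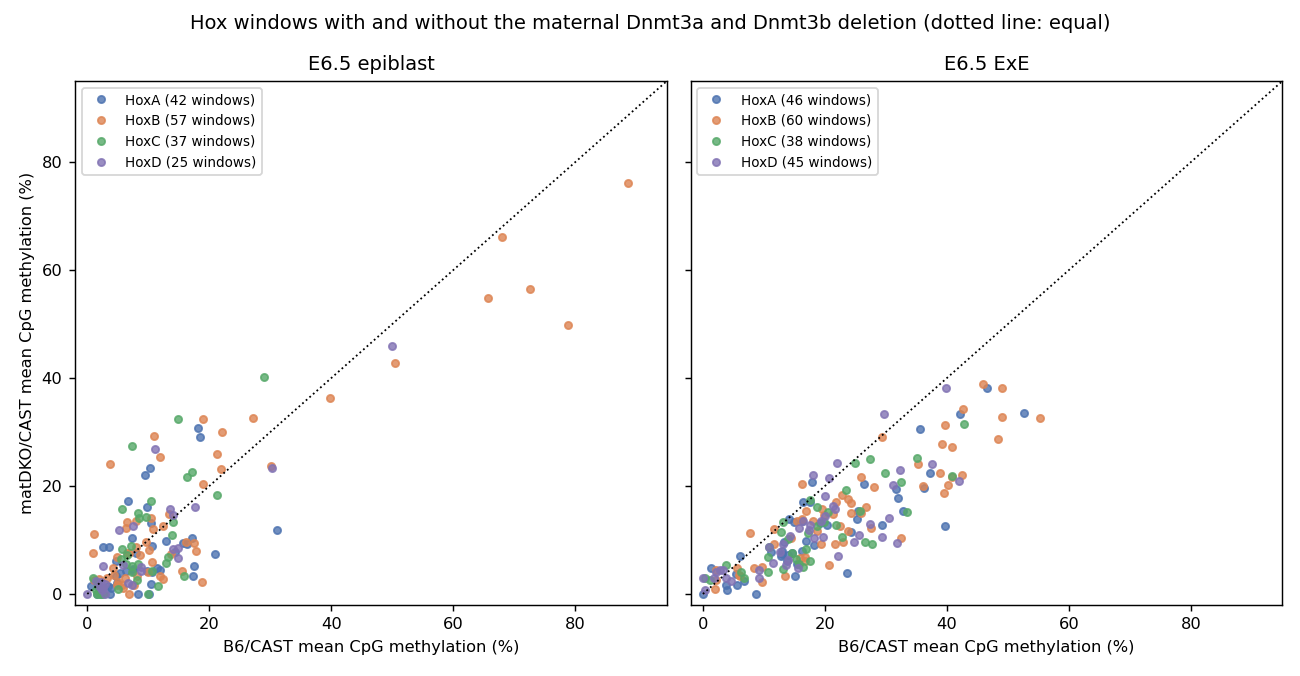
Mean CpG methylation (%) of each member window at E6.5 in matDKO/CAST (vertical axis) against B6/CAST (horizontal axis) for epiblast and ExE, with 1 point per window coloured by cluster and a dotted line where both are equal. In ExE most points lie below the line over the whole range, with means of 13.3% against 20.6%, while in epiblast they scatter on both sides below 30% and lie under the line at most of the highest HoxB windows.

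Both epiblast calls were in HoxB and rested on few libraries. The lower one, chr11:96209122-96215141 in the methylated interval, stood at 64.7%, 85.7% and 86.2% in B6/CAST and 44.9% and 54.9% in matDKO/CAST, a difference of -29.0 points (SE 7.77, adjusted p = 0.033). The higher one, chr11:96346123-96348909 over an exon of a listed gene near Hoxb2, stood at 11.2%, 0% and 0% against 25.0% and 23.1%, a difference of +20.3 points (SE 5.91, adjusted p = 0.041). The groups did not overlap in either. Neither call held on the logit scale or with the library mean subtracted, and both were lost without replicate 3 or the unnumbered library of B6/CAST, or without any 1 library of CAST/B6. Without replicate 1 of matDKO/CAST 1 member was called lower and 0 higher, and without its replicate 3 it was 0 lower and 4 higher. The interval of HoxB as a whole stood at 59.1% ± 2.86 in B6/CAST (n = 3), 67.9% ± 1.16 in CAST/B6 (n = 3) and 50.3% ± 2.26 in matDKO/CAST (n = 2), and the rest of HoxB at 10.5%, 7.98% and 10.3%. In ExE the same interval stood at 42.3% ± 0.99 (n = 2), 48.6% ± 4.60 (n = 2) and 29.1% ± 4.98 (n = 3), and the rest of HoxB at 21.4%, 22.3% and 13.6%.

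Whether the tissues responded differently was tested as the difference of the 2 differences. Over the 133 members with a value in all 15 libraries it averaged +5.87 points, and limma called 0 members and 0.0% of all 167307 windows in either direction. An unadjusted p under 0.05 was found for 10 members and 14723 windows in all, and the 0 calls do not show that the tissues responded alike. The robust and logit fits also called 0 members. At the HoxA window of chr6:52235522-52239829 the epiblast stood at 18.2%, 13.3% and 22.7% in B6/CAST and 23.3% and 38% in matDKO/CAST, opposite in direction to ExE, and the difference between tissues was +39.7 points (SE 8.89, adjusted p = 0.35).

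The tissues were also compared within matDKO/CAST. Over the same 133 windows the epiblast stood at 10.8% ± 1.69 (n = 2) and the ExE at 13.7% ± 0.62 (n = 3), against 12.3% and 21.1% in B6/CAST. Limma called 3 members higher in ExE, where 0.301% of all windows were, and 2 higher in epiblast, where 19.6% were. Next to Hoxa2, chr6:52153914-52157865 was listed at 0% in both matDKO/CAST epiblast libraries and stood at 29.8%, 23.9% and 60.8% in ExE (-38.1 points, SE 9.86, adjusted p = 0.019). At chr6:52163074-52164425, which overlaps an exon of Hoxa2, epiblast stood at 8.62% and 0% and ExE at 28.1%, 28.6% and 35.0% (-26.2 points, SE 6.31, adjusted p = 0.014). At chr2:74734423-74736101 epiblast stood at 0% and 25.0% and ExE at 42.8%, 27.1% and 44.4% (-25.6 points, SE 7.78, adjusted p = 0.035). The tissues did not overlap in these 3 windows. The 2 windows called higher in epiblast lay in the HoxB interval, from chr11 positions 96219876 (+33.6 points, SE 7.29, adjusted p = 0.0099) and 96235134 (+23.1 points, SE 7.59, adjusted p = 0.046). Each of these 5 calls was lost under some alternative. On the logit scale the call at the window from chr6 position 52153914 held and the others did not, and with each library's genome mean subtracted both calls in the HoxB interval were lost. Leaving out either matDKO/CAST epiblast library, or replicate 3 of matDKO/CAST ExE, ended the call at 52153914. Leaving out replicate 3 of matDKO/CAST epiblast ended the call at 52163074. The call at 74734423 was lost without replicate 1 of matDKO/CAST epiblast or without replicate 1 or 3 of matDKO/CAST ExE. The call at 96235134 was lost with 10 of the 15 libraries left out in turn and with limma's trend and robust options.

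The reciprocal crosses were compared to see how far the wild-type arms differ. At E7.5 the mean difference over members, B6/CAST minus CAST/B6, was +0.04 points, and limma called 0 of 255 members and 0.0% of all windows, with 11 members and 26938 windows at an unadjusted p under 0.05. At E6.5 it called 0 members in epiblast (mean +1.69 points, 5 members and 27360 windows at an unadjusted p under 0.05) and 0 in ExE (mean +0.77 points, 6 members and 59327 windows), with 0.0% of all windows called in each. The HoxA windows stood at 11.5%, 11.2% and 8.05% in B6/CAST epiblast against 7.04%, 7.24% and 6.71% in CAST/B6, and at 22.3% and 19.5% in B6/CAST ExE against 14.3% and 17.4%, over the 40 windows complete in wild type. In HoxA the crosses did not overlap in either tissue at E6.5, and B6/CAST was the higher. In HoxB, HoxC and HoxD they overlapped in both tissues, and in HoxB ExE the B6/CAST libraries, at 25.2% and 26.8%, had a lower mean than those of CAST/B6, at 27.5% and 26.3%. Over the 4 clusters the ExE mean ranged from +0.31 to +1.42 points when 1 library was left out. The robust fit and the logit scale also called 0 members in each of the 3 comparisons, which does not show that the crosses were alike. Over all windows the E6.5 medians were -8.00 points in epiblast and -11.5 in ExE, further from 0 than the means over members.

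Examples from single windows are the largest uncalled differences of HoxA and HoxB in E6.5 ExE and of HoxD at E7.5. In E6.5 ExE, chr6:52218934-52221191 near Hoxa7 stood at 68.3% and 36.8% in B6/CAST and 15% and 21.8% in CAST/B6 (+34.2 points, SE 10.3, adjusted p = 0.13). In the same libraries the window near Hoxb2, chr11:96346123-96348909, stood at 15.4% and 17.0% against 39.5% and 45.5% (-26.3 points, SE 7.16, adjusted p = 0.12). At E7.5, chr2:74753904-74761460 before Hoxd1 stood at 72.4% and 62.1% in B6/CAST epiblast, 47.1% and 51.6% in CAST/B6 epiblast, 43.0% and 39.6% in B6/CAST ExE and 30.6% and 35.0% in CAST/B6 ExE, a difference of +13.2 points (SE 3.26, adjusted p = 0.69). The crosses did not overlap within a tissue in these windows.

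The parental alleles were compared at E7.5 from reads that carry a strain-specific base. Fewer member windows had an allelic value, between 186 and 209 of 255 per allele in ExE and between 133 and 180 in epiblast. In ExE the maternal alleles of the 141 windows with both alleles in all 4 libraries stood at 21.5%, 22.8%, 20.7% and 20.9% and the paternal alleles at 22.7%, 24.0%, 24.2% and 22%. The maternal allele was lower in 4 of 4 libraries, by a mean of -1.73 points ± 1.18, while within a library the median absolute difference of a window was 6.62 to 7.49 points. In epiblast, over 67 windows, the maternal alleles stood at 12.4%, 15.3%, 12.8% and 13.5% and the paternal alleles at 11.9%, 15.4%, 13.1% and 15%, a mean difference of -0.36 points ± 0.86 with both signs among the libraries. Over all autosomal windows the mean difference was -0.09 points in each tissue. By cluster the sign in ExE was not uniform, with the maternal allele higher in 2 of 4 libraries in HoxA, 1 in HoxB, 2 in HoxC and 0 in HoxD.

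Limma called 0 member windows for a parental difference in ExE, where 0.00503% of all 318358 windows were called maternally higher and 0.0022% paternally higher, and 0 in epiblast, where 0.00629% and 0.0021% of 238529 were. An unadjusted p under 0.05 was found for 10 members and 20303 windows in ExE and for 2 members and 11608 windows in epiblast, and the robust and logit fits called 0 members in each. So few windows of the genome passed that 0 calls among the members do not show that the alleles were alike. The largest uncalled difference in ExE was -20.9 points (SE 6.53, adjusted p = 0.78) at the HoxB window from chr11 position 96333286. In epiblast it was -25.0 points (SE 5.45, adjusted p = 0.94) at the window that holds the start of Hoxb6.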

How the data were processed

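Methylation was measured by PBAT in 15 libraries at E6.5 and 8 at E7.5. The authors deposited a percent methylation value (0 to 100) for each window of a size they named 100 CpG (44 to 62 CG in the GRCm38 sequence of the E7.5 members and 48 to 70 at E6.5), in separate tables for E6.5, E7.5 and the E7.5 alleles, with no coverage, so depth per sample is unknown and no interval could be given. By the submitters' processing notes reads were trimmed with Trim Galore 0.4.4 and aligned with Bismark 0.20.0. Values were not scaled between libraries, so differences in overall methylation or conversion between libraries remain in them. Strain-specific bases split the reads, which leaves fewer reads per allelic value.

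One E6.5 epiblast column of B6/CAST has a number that no sample title of that group has, so it was used as a replicate of that group without a number. Windows were placed on GRCm38 with GENCODE M21 genes. A window's annotation (exon, intron, outside) refers to the listed genes only. Differences were tested with limma 3.58.1 (R 4.3.3; lmFit and eBayes with defaults) over all autosomal windows with a value in every library of the fit, with Benjamini-Hochberg adjustment over all of them and a threshold of 0.05. The E6.5 and E7.5 tissue fits had the cross as covariate, the matDKO/CAST and cross contrasts at E6.5 were taken between group means, and parental differences were maternal minus paternal per library with the cross coded. Cluster means are means over windows per library, then mean and SD over libraries, with no test. Windows were named as follows: for each cluster and comparison up to 3 called windows with the largest differences, or the largest where none was called, the highest and lowest windows, and the highest and lowest start windows. The other gene starts given with values were chosen after their values were seen. Members and lists were chosen with earlier results of these data known. The sample titles do not say whether same-numbered epiblast and ExE libraries came from the same embryos. Replicate numbers were not used as a block in the main fits. The fits were tested on simulated data. Python 3.11.15 with pandas 2.3.3 and scipy 1.17.1 was used for the rest.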

Additional observations from a re-analysis of the deposited data

Results flagged for a closer look

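Some sets of 4 or 6 libraries held 1 library far from the others by Dixon's criterion, which chance meets in about 1 set in 20. Of 106 sets 10 did. In E6.5 wild-type ExE the mean over the 4 clusters was 19.9% in 1 CAST/B6 library, against 21.4% to 21.6% in the other 3. The maternal minus paternal difference over the 4 clusters in E7.5 ExE was -3.50 points in 1 CAST/B6 library, against -1.18 to -1.12 in the others.

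Of the named windows, 5 stood apart in E6.5 wild-type epiblast. The HoxA window from position 52160333 reached 42.1% in 1 library (others 0% to 6.86%) and the one from 52163074 reached 17.0% (0% to 5.83%). The HoxC window from 102939334 reached 33.3% (2.70% to 13%) and the one from 102947972 reached 17.2% (2.83% to 7.09%). The HoxB window from 96209122 fell to 64.7% in 1 library, below the 81.2% to 90.4% of the others. In E6.5 wild-type ExE the HoxD window from 74734423 stood at 53.3% in 1 library, against 39.5% to 40.3%. At E7.5 the HoxB window from 96215555 stood at 81.3% in 1 epiblast library (others 83.7% to 84.2%), and the start window of Hoxb2, from 96348733, at 58.7% in 1 ExE library (others 35.3% to 39.2%).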

How the results depend on the processing

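The direction of the wild-type tissue difference over the members held under each alternative tried at both days, while the counts of called windows moved. Subtraction of the genome means could not have turned this direction, since the genome mean was higher in epiblast. At E6.5 the counts, higher in epiblast and higher in ExE, were 5 and 24 when calls smaller than 20 points were dropped, 8 and 99 with limma's trend and robust options, 5 and 83 on the logit scale, and 0 and 156 with each library's genome mean subtracted, where the mean difference was -25.7 points. At E7.5 they were 6 and 28 when such calls were dropped, and 3 and 243 with the mean subtracted (mean -26.0 points). Leaving out 1 library gave 6 to 8 and 44 to 75 at E6.5 (means -9.72 to -8.79) and 11 to 12 and 166 to 179 at E7.5 (means -9.95 to -9.33). Requiring 2 values per group instead of complete windows, counting windows with any overlap of a cluster, or dropping the cross covariate kept these counts within 1.5 times. Where leaving out a library left a group with 1, that library was assumed to vary like the other groups.

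For matDKO/CAST in epiblast, the counts of members higher and lower were 4 and 3 with trend and robust options, 2 and 3 with both crosses pooled as wild type, 0 and 0 on the logit scale, and 0 and 0 with the library mean subtracted, where the mean difference turned to +15.6 points, with HoxA (+14.7), HoxB (+15.3) and HoxD (+15.7) turning too. Without 1 library they ranged from 0 to 4 and from 0 to 1, with means of -2.02 to -0.019 points. In ExE subtraction reversed the mean to +5.07 points (HoxA +4.90, HoxB +3.92, HoxC +5.53, HoxD +6.40), pooling the crosses gave 16 members lower, and leaving out 1 library gave 0 calls (means -7.72 to -6.91). The cause was not tested beyond the subtraction itself, which expresses the members relative to the genome. In epiblast the genome difference was -16.7 points and the B6/CAST member mean 12.3%, so over the members the turn was fixed in advance.

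With the library mean subtracted, the cross difference was +10.1 points in E6.5 epiblast, +12.7 in E6.5 ExE (HoxB reversed to +10.2) and +0.92 at E7.5, and the difference of the matDKO effect between tissues was +10.0. Leaving out 1 library gave means of 1.22 to 2.60, 0.31 to 1.42, -0.21 to 0.42 and 4.87 to 7.45 points in that order, with 0 calls. For the tissues within matDKO/CAST the ExE-higher count was 6 with trend and robust options, the counts (epiblast, ExE) were 0 and 1 on the logit scale, and the mean was -16.0 points with 0 members higher in epiblast after subtraction. Without 1 library these counts were 1 to 4 and 1 to 4 (means -3.97 to -1.43). The alternatives for these within-matDKO, between-tissue and E7.5 cross comparisons were chosen after seeing the data. Parental means were -2.16 to -1.36 points in ExE and -0.74 to -0.17 in epiblast without 1 library.

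Libraries with the same replicate number showed little shared deviation (correlations across windows from -0.012 to 0.051), which does not show that they came from different embryos. With the replicate number as a block the counts at E6.5 were 5 and 25, at E7.5 12 and 178, and for matDKO/CAST in epiblast 0 and 0. At E6.5 these fits also left out the unnumbered B6/CAST epiblast library, so the counts do not show the effect of the block alone. Of the named windows, 521 comparisons kept their side of the threshold when 1 library was left out, 34 lost it and 3 gained it.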
